A study of Mus musculus with 6 samples.

Results

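Notch and Hedgehog pathway genes were followed in mouse salivary gland with and without a RANKL transgene. A set of 35 genes was taken by gene symbol from a table of 24054 gene rows, 22 of the Notch pathway and 13 of the Hedgehog pathway, and all 35 symbols were found. There were 2 groups, with 3 messenger RNA libraries in each. K5-RANKL mice were K5-rtTA:TetO-RANKL animals, in which the activator rtTA, made under a keratin 5 promoter, turns on RANKL when doxycycline is present. Controls were monogenic, and which transgene they carried is not given in the sources used here, nor are strain, sex or the glands taken. Doxycycline reached both groups through diet and drinking water, starting at 9 weeks of age and lasting 2 weeks. Each library was a pool of salivary gland tissue from 5 mice, so p-values measure the spread between pools.

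Notch receptors are surface proteins that are cut when a Jagged or Delta-like ligand on a neighbouring cell binds them. The freed intracellular part joins the DNA-binding protein RBPJ and a Mastermind coactivator, and switches on repressors of the Hes and Hey families. Fringe enzymes add sugars to the receptor and change which ligand it answers to. Hedgehog ligands are secreted and bind Patched1, which otherwise holds back Smoothened; freed Smoothened turns the Gli factors toward activation. Gli1, Ptch1 and Hhip are widely used readouts of Hedgehog activity, and the products of Ptch1 and Hhip in turn restrain the pathway. In epithelia Notch is known for decisions between basal and luminal fates, and Hedgehog for signals between epithelium and mesenchyme during the growth of branching glands.

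Control libraries held between 13875951 and 17921815 counts, and K5-RANKL libraries between 14149734 and 16412579. Levels are given as CPM, counts relative to a library size scaled by the trimmed mean of M values (TMM), and differences as log2 fold changes of K5-RANKL over control. Tnfsf11, which encodes RANKL, held 0.938 to 3.78 CPM in control libraries against 404.5 to 722.8 CPM in K5-RANKL libraries. Of 14044 genes tested, 34.2% were called higher and 32.1% lower (edgeR, adjusted p under 0.05). When libraries were scaled by their totals, the log2 fold changes of all genes had a median of 1.01, in place of 0.0097 with TMM. Directions below are on the TMM scale, relative to the other genes of a library, and by library totals each member that was lower stood above 0 but below that median of 1.01. All 8 listed acinar markers, which define secretory gland tissue, were present in every library. They summed to between 164800 and 212900 CPM in controls and between 21770 and 30300 CPM in K5-RANKL libraries, and all 8 fell on the TMM scale; the highest mean CPM was that of Bpifa2 in controls and of Prol1 in K5-RANKL glands. In such bulk samples fewer cells of a type and less RNA per cell cannot be told apart.

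Of the 35 members 32 had enough counts to test, and the 3 others, Hey2, Shh and Ihh, did not. Among those tested 16 were higher in K5-RANKL glands, 6 lower and 10 not called, with a median log2 fold change of 0.32 beside 0.0097 for all genes tested. Beside these counts stand 34.2% of all genes called higher and 32.1% called lower; the 22 members called either way compare with 66.2% of all genes. The control and K5-RANKL values did not overlap for 15 members that were higher and 5 that were lower, beside 36.3% and 34.1% of all genes. Split by pathway, 13 of 21 tested Notch members were higher and 2 lower, with a median of 0.40, while 3 of 11 tested Hedgehog members were higher and 4 lower, with a median of −0.11. By library totals 31 members were higher and 0 lower, where 83.5% and 4.97% of all genes were. With 1 library left out, 13 to 17 members were higher, while the share of all genes called higher was 32.4%, 32.1% and 32.0% without control 1, 2 and 3 and 31.8%, 33.4% and 31.2% without K5-RANKL 1, 2 and 3. Members called lower then numbered 5 to 7, while the share of all genes called lower was 30.2%, 30.3% and 29.9% without a control and 29.9%, 31.3% and 29.1% without a K5-RANKL library, in the same order. Members were chosen with earlier results of these data known, and no test was made of the list as a whole.

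**Figure D1:**
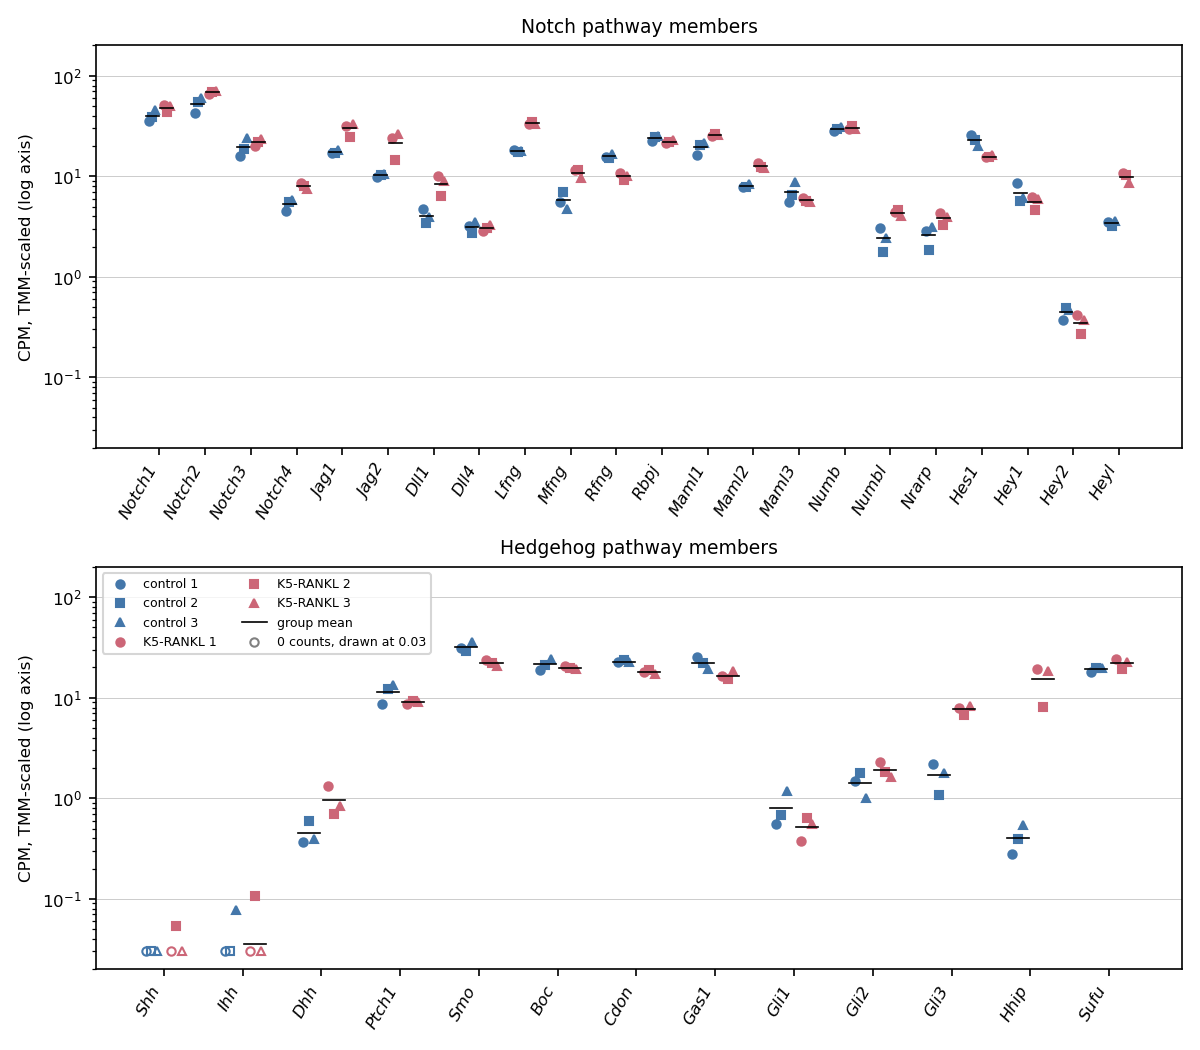
TMM-scaled CPM (y axis, logarithmic) of the 22 Notch members (top) and 13 Hedgehog members (bottom), with 1 symbol for each control (blue) and K5-RANKL (red) library; short lines are group means, and open symbols are libraries with 0 counts, drawn at 0.03. Hhip moves from 0.276 to 0.547 CPM in controls to 8.02 to 19.2 CPM in K5-RANKL libraries, and Shh and Ihh hold almost no counts.

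Of the 4 Notch receptors, Notch1, Notch2 and Notch4 were called higher and Notch3 was not, and the order of their levels stayed as it was. Notch2 held 42.8, 55.1 and 60.2 CPM in the control libraries and 66.6, 69.7 and 71.0 CPM in the K5-RANKL libraries. Every K5-RANKL library was above every control, and control 1 was the lowest of all. Notch2 rose by 0.39 in log2 units (SE 0.10, edgeR adjusted p = 0.00311), and stood at 0.26 without control 1. Notch4, a receptor known from vascular endothelium, held 4.51, 5.49 and 5.86 CPM in controls and 8.67, 7.97 and 7.45 CPM in K5-RANKL libraries. The groups did not overlap, and Notch4 rose by 0.60 (SE 0.15, edgeR adjusted p = 0.00174).

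Notch1 held 35.7, 38.8 and 46.0 CPM in controls and 50.8, 43.2 and 50 CPM in K5-RANKL libraries. The groups overlapped, K5-RANKL 2 lying below control 3. Its rise of 0.25 (SE 0.10, edgeR adjusted p = 0.0279) lost its call when control 1 (adjusted p = 0.135), control 2 (0.0959), K5-RANKL 1 (0.0966) or K5-RANKL 3 (0.0954) was left out, and with DESeq2 (0.0508). Across the alternatives for Notch1 this p lay between 3.66e-09 and 0.135, the lowest coming from library totals, by which most genes were called higher. Notch3, the receptor of pericytes and vascular smooth muscle, held 15.8, 18.8 and 24.0 CPM in controls and 20.2, 21.9 and 23.3 CPM in K5-RANKL libraries. All K5-RANKL values lay within the range of the controls. It stood at 0.15 (SE 0.13, edgeR adjusted p = 0.312), and 1 library decided its value. Without control 3 Notch3 was called higher at 0.33 (adjusted p = 0.022), while without control 1 it stood at 0.013 (0.929). Its alternatives spanned 1.62e-07, by library totals, to 0.929.

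Per kilobase of exon, Notch2 was the most abundant receptor in both groups, at a mean of 4.89 CPM per kilobase in controls and 6.41 in K5-RANKL glands. Notch1 followed at 2.82 and 3.37, Notch3 at 2.41 and 2.70, and Notch4 at 0.656 and 0.996. Notch1 and Notch3 differed by little in this order, although within each library Notch1 took the larger share of the receptor sum. This closeness depends on the length used, the union of all annotated exons, 14232 bases for Notch1 and 8089 for Notch3. In CPM, not divided by length, the control means of Notch1 and Notch3 were 40.2 and 19.5. Shares within a library do not depend on the scaling between libraries. Notch3 took 22.3% ± 1.26 of the summed receptor level in controls and 20% ± 1.09 in K5-RANKL glands (SD, n = 3 each), and Notch4 took 6.11% ± 0.254 and 7.41% ± 0.718 (SD, n = 3 each). For both the groups did not overlap, at exact permutation p = 0.1, two-sided, the smallest that 3 against 3 allows (Benjamini-Hochberg adjusted over the 4 receptors, 0.2). The share of Notch1 differed by −1.28 percentage points (exact permutation p = 0.5, adjusted 0.5) and that of Notch2 by 2.26 points (exact permutation p = 0.2, adjusted 0.267), with overlapping groups.

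Of the Notch ligands, Jag1, Jag2 and Dll1 were called higher and Dll4 was not. Jag1, which encodes the ligand Jagged1, held 16.9, 17.1 and 18.4 CPM in controls and 31.9, 24.6 and 33.2 CPM in K5-RANKL libraries. The groups did not overlap, and K5-RANKL 2 was the lowest of its group. Jag1 (chr2:137081451-137116520, GRCm38.p6) rose by 0.78 (SE 0.11, 1.71-fold, edgeR adjusted p = 1.15e-05). Jag2, encoding Jagged2, held 9.76, 10.4 and 10.6 CPM in controls and 23.9, 14.4 and 26.1 CPM in K5-RANKL libraries. Again no values overlapped, with K5-RANKL 2 nearer to the controls than to its own group. Jag2 rose by 1.07 (SE 0.24, 2.10-fold, edgeR adjusted p = 0.00516).

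Dll1, encoding Delta-like 1, held 4.70, 3.43 and 3.91 CPM in controls and 9.99, 6.31 and 8.99 CPM in K5-RANKL libraries. K5-RANKL 2 was again the lowest of its group and above all controls. Dll1 rose by 1.08 (SE 0.19, 2.11-fold, edgeR adjusted p = 9.62e-05). Dll4, the Delta-like ligand of sprouting endothelium, lay between 2.75 and 3.52 CPM in controls and between 2.86 and 3.31 CPM in K5-RANKL libraries, and was not called (−0.05, SE 0.19, edgeR adjusted p = 0.826; −0.14 without control 2 and 0.03 without control 3). As a share of the 4 ligands per kilobase, Dll4 took 13.1% ± 1.03 in controls and 7.44% ± 1.59 in K5-RANKL glands (SD, n = 3 each, exact permutation p = 0.1), while Jag1 held the largest share in both, 48.0% ± 1.42 and 46.9% ± 2.04. The ligand, Fringe and repressor shares were added after the values were seen and are descriptions.

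Fringe enzymes went in different directions. Lfng, encoding Lunatic fringe, held 18.1, 17.5 and 17.7 CPM in controls and 33.4, 34.6 and 33.0 CPM in K5-RANKL libraries. Libraries within each group lay close together and the groups were far apart. Lfng (chr5:140607341-140615545) rose by 0.92 (SE 0.08, 1.89-fold, edgeR adjusted p = 3.33e-08). Mfng, encoding Manic fringe, held 5.62, 6.97 and 4.77 CPM in controls and 11.5, 11.5 and 9.64 CPM in K5-RANKL libraries. Its groups did not overlap either, and it rose by 0.92 (SE 0.15, 1.90-fold, edgeR adjusted p = 3.26e-05).

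Rfng, encoding Radical fringe, was the member of the family that went down. It held 15.7, 15.1 and 16.7 CPM in controls and 10.8, 9.20 and 10.1 CPM in K5-RANKL libraries, with no overlap. On the TMM scale Rfng fell by 0.65 (SE 0.11, edgeR adjusted p = 4.01e-05); by library totals it stood at 0.35, which is −0.66 relative to the median of all genes. The make-up of the family within each library showed the same divergence without any scaling. Lfng took 45.8% ± 0.851 of the summed Fringe level per kilobase in controls and 63.1% ± 1.48 in K5-RANKL glands, and Rfng 41.0% ± 2.095 and 18.9% ± 1.575 (SD, n = 3 each). The ratio of Lfng to Rfng was 1.12 ± 0.0526 in controls and 3.35 ± 0.347 in K5-RANKL glands (SD, n = 3 each, exact permutation p = 0.1, the smallest possible).

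Lfng is itself a known Notch target, so the 250 bases before its RefSeq start site are shown, from GRCm38.p6, chr5:140607091-140607340, plus strand, 5′ to 3′. Capitals mark both matches to the RBPJ core, TGGGAA on either strand, which is TTCCCA on the other.
Lfng: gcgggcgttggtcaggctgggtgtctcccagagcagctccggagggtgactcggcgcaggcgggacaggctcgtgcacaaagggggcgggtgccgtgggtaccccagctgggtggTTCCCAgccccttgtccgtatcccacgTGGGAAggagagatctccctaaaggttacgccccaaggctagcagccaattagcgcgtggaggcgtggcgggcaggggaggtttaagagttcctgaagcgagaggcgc
The first base of these matches lies 135 and 108 bases before the start. This hexamer was found in 21.6% of 32851 such windows, so a match is a description of the letters and not a site. Windows were at hand for 28 members, and 5 of these held the hexamer: Lfng, Rbpj, Maml2, Maml3 and Hey2. No window was at hand for Mfng, Hes1, Hey1, Heyl, Shh, Boc and Gli1.

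In the transcription complex, the coactivator genes Maml1 and Maml2 rose and the DNA-binding subunit did not pass the test. Maml1, encoding Mastermind-like 1, held 16.4, 20.5 and 21.7 CPM in controls and 25.2, 26.4 and 25.7 CPM in K5-RANKL libraries. The groups did not overlap, and it rose by 0.40 (SE 0.10, edgeR adjusted p = 0.00207). Maml2 held 7.83, 7.85 and 8.37 CPM in controls and 13.5, 12.4 and 12.2 CPM in K5-RANKL libraries, also without overlap, and rose by 0.66 (SE 0.11, edgeR adjusted p = 7.42e-05). Maml3 held 5.62, 6.57 and 8.76 CPM in controls and 6.14, 5.72 and 5.54 CPM in K5-RANKL libraries. It overlapped and stood at −0.28 (edgeR adjusted p = 0.143). Without control 1 Maml3 was called lower at −0.41 (adjusted p = 0.0394), while without control 3 it stood at −0.072 (0.731), the highest p of its alternatives. The lowest, 0.000556, came from library totals, where Maml3 turned sign (0.72). Rbpj held 22.3, 24.5 and 25.1 CPM in controls and 21.3, 21.8 and 22.7 CPM in K5-RANKL libraries, overlapping, at −0.13 (SE 0.09, edgeR adjusted p = 0.197).

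Of the genes that restrain Notch signalling, Numbl and Nrarp rose and Numb did not pass. Numbl, a homologue of the endocytic adaptor Numb, held 3.04, 1.77 and 2.42 CPM in controls and 4.44, 4.60 and 4.05 CPM in K5-RANKL libraries. Its groups did not overlap, and it rose by 0.85 (SE 0.21, edgeR adjusted p = 0.00162). Numb itself held 28.1, 29.6 and 31.2 CPM in controls and 29.5, 31.5 and 29.8 CPM in K5-RANKL libraries, and stood at 0.03 (SE 0.08, edgeR adjusted p = 0.783; −0.01 without control 1 and 0.06 without control 3). Nrarp, a Notch-induced ankyrin repeat protein that dampens the pathway, held 2.86, 1.86 and 3.13 CPM in controls and 4.27, 3.31 and 3.96 CPM in K5-RANKL libraries. The groups of Nrarp did not overlap but came close. Nrarp rose by 0.55 (SE 0.21, edgeR adjusted p = 0.0328). The call was lost without control 2 (0.36, adjusted p = 0.162), K5-RANKL 1 (0.106) or K5-RANKL 3 (0.0768) and with DESeq2 (0.0841). The alternatives for Nrarp spanned 6.14e-07, by library totals, to 0.162.

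The Hes and Hey repressors, whose genes are the best-known outputs of Notch, did not move together. Heyl held 3.50, 3.24 and 3.60 CPM in controls and 10.7, 10.2 and 8.52 CPM in K5-RANKL libraries. The lowest K5-RANKL library was far above the highest control. Heyl (chr4:123233556-123249870) rose by 1.51 (SE 0.16, 2.84-fold, edgeR adjusted p = 1.73e-07), the largest log2 fold change among the tested Notch members. Hes1, which held 25.7, 23.0 and 20.2 CPM in controls, held 15.5, 15.4 and 16.3 CPM in K5-RANKL libraries. These groups did not overlap either, in the opposite order. On the TMM scale Hes1 fell by 0.54 (SE 0.10, edgeR adjusted p = 0.000136); by library totals it stood at 0.46, or −0.55 relative to the median of all genes.

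Hey1 held 8.66, 5.69 and 6.10 CPM in controls and 6.18, 4.65 and 5.91 CPM in K5-RANKL libraries, overlapping, at −0.28 (SE 0.17, edgeR adjusted p = 0.17). Its value was −0.077 without control 1 and −0.17 without K5-RANKL 2. Hey2 lay between 0.368 and 0.491 CPM in controls and between 0.267 and 0.415 CPM in K5-RANKL libraries, from 38 counts over all 6 libraries, and was not tested. Per kilobase, Hes1 remained the most abundant of the 4 in both groups, at 11.3 and 7.72 CPM per kilobase. Its share of the family went from 79.8% ± 1.87 in controls to 67.6% ± 2.17 in K5-RANKL glands, and that of Heyl from 4.82% ± 0.688 to 16.8% ± 2.07 (SD, n = 3 each, exact permutation p = 0.1 for both, the smallest possible). These shares hold whatever the scaling.

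**Figure D2:**
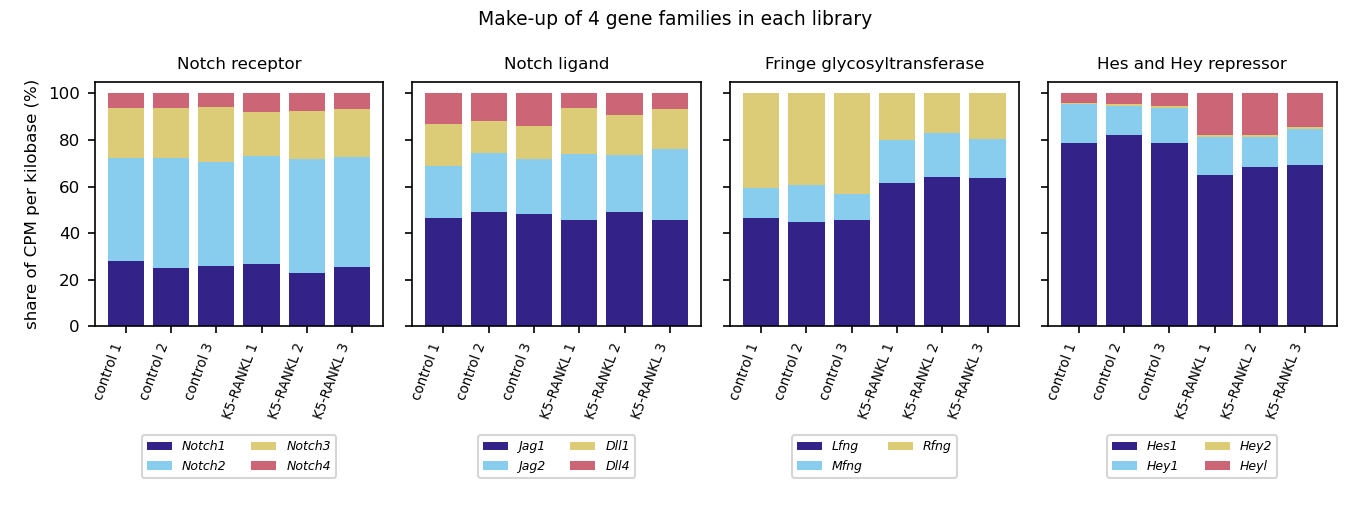
Share (percent, y axis) of each gene in the summed CPM per kilobase of its family, 1 bar for each of the 6 libraries, for Notch receptors, Notch ligands, Fringe enzymes and Hes and Hey repressors. Lfng goes from 45.8% to 63.1% of the Fringe level and Heyl from 4.82% to 16.8% of the repressor level on average, while the make-up of the receptors differs by at most 2.28 percentage points.

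A further list of 49 Notch pathway genes, outside the 35, was read for the rest of the pathway, and 42 were tested. Of these 15 were higher (35.7%) and 12 lower (28.6%), with a median log2 fold change of −0.00082, near the 34.2% and 32.1% of all genes. Adam17, a protease that can cut Notch and many other surface proteins, rose by 1.69 (SE 0.08) from 25.0 ± 1.82 to 80.7 ± 4.47 CPM (SD, n = 3 each, edgeR adjusted p = 1.34e-11). The ubiquitin ligase genes Dtx3l, Neurl3 and Neurl1b rose by 1.53, 1.44 and 1.15, and Poglut1, whose product adds glucose to Notch, by 1.31. The largest falls among genes of at least 5 CPM were those of the co-repressor gene Tle2 (−1.15), Aph1c (−0.72) and Aph1b (−0.49), both encoding gamma-secretase subunits, the ubiquitin ligase gene Mib2 (−0.71) and the acetyltransferase gene Kat2b (−0.61). Aph1b lost its call when control 3 (adjusted p = 0.105) or K5-RANKL 1 (0.0987) was left out, with a range across alternatives of 0.00286 to 0.105. By library totals 0 of the 42 were lower: Tle2 stood at −0.15, not called, and the other 4 turned sign, lying between 0.27 and 0.51.

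Hedgehog ligands were at or near the limit of detection. Shh had 0 counts in all controls, so a level of up to 0.294 CPM is allowed in the control of smallest scaled size, and 1 count in K5-RANKL 2. Ihh had 1 count in control 3 and 2 in K5-RANKL 2, and neither gene was tested. Dhh, encoding Desert hedgehog, held 0.368, 0.589 and 0.391 CPM in controls and 1.33, 0.695 and 0.838 CPM in K5-RANKL libraries, from 4 to 32 counts a library. The groups did not overlap, with K5-RANKL 1 well above the others, and Dhh rose by 1.12 (SE 0.41, edgeR adjusted p = 0.0246). Leaving out control 1 (adjusted p = 0.0808), control 3 (0.0877) or K5-RANKL 1 (0.78, adjusted p = 0.151) ended the call of Dhh, as did DESeq2 (0.104). Its alternatives spanned 4.27e-05, by library totals, to 0.151. In GENCODE M21 the exons of Dhh overlap those of Rhebl1 on the same strand, and Rhebl1 rose by 1.34 (SE 0.35, edgeR adjusted p = 0.0029) from 0.598 ± 0.168 to 1.49 ± 0.401 CPM (SD, n = 3 each). How reads in the overlap were assigned is not given in the sources used here, and its part in the rise of Dhh was not tested.

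Both the receptor and the transducer of Hedgehog were called lower on the TMM scale and stood above 0 by library totals. Smo, encoding Smoothened, held 31.0, 29.3 and 35.9 CPM in controls and 23.7, 22.2 and 20.7 CPM in K5-RANKL libraries. The groups did not overlap. On the TMM scale Smo fell by 0.53 (SE 0.09, edgeR adjusted p = 7.95e-05); by library totals it stood at 0.46, or −0.54 relative to the median of all genes. Ptch1, encoding Patched1, held 8.66, 12.2 and 13.3 CPM in controls and 8.59, 9.30 and 9.08 CPM in K5-RANKL libraries. Control 1 lay among the K5-RANKL values, so the groups overlapped. Its fall of 0.35 (SE 0.14, edgeR adjusted p = 0.038) lost its call when control 2 (adjusted p = 0.117), control 3 (0.242, at −0.21), K5-RANKL 1 (0.0966) or K5-RANKL 3 (0.0803) was left out. With DESeq2 and voom the adjusted p was 0.0719 and 0.0579. The highest of all alternatives was 0.242. The lowest, 0.000421, came from library totals, where Ptch1 stood above 0, at 0.65, and so is not a p for a fall.

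Of the co-receptors, which help Patched1 to bind ligand, Cdon and Gas1 were called lower on the TMM scale and Boc was not. Cdon held 22.6, 23.7 and 22.4 CPM in controls and 18.0, 18.8 and 17.0 CPM in K5-RANKL libraries, with no overlap. It fell by 0.35 on the TMM scale (SE 0.09, edgeR adjusted p = 0.00207) and stood at 0.65 by library totals, −0.36 relative to the median of all genes. Gas1, a membrane-anchored co-receptor of fibroblasts and progenitors, held 25.3, 22.0 and 19.2 CPM in controls and 16.3, 15.3 and 18.3 CPM in K5-RANKL libraries. Control 3 and K5-RANKL 3 came close without overlap. Gas1 fell by 0.41 on the TMM scale (SE 0.11, edgeR adjusted p = 0.00312) and stood at 0.59 by library totals, −0.42 relative to the median of all genes. Boc held 19.0, 21.4 and 24.2 CPM in controls and 20.9, 19.6 and 19.4 CPM in K5-RANKL libraries, overlapping, at −0.11 (SE 0.10, edgeR adjusted p = 0.328), and at −0.20 without control 1 and −0.018 without control 3.

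Of the Gli transcription factors, Gli3 rose and Gli1 and Gli2 were not called. Gli3, the factor that serves mainly as a repressor, held 2.21, 1.08 and 1.80 CPM in controls and 7.96, 6.79 and 8.19 CPM in K5-RANKL libraries. The lowest K5-RANKL library lay well above the highest control. Gli3 (chr13:15463723-15730026) rose by 2.16 (SE 0.21, 4.47-fold, edgeR adjusted p = 7.71e-08). Gli1, the activator whose own transcription is a readout of the pathway, lay between 0.553 and 1.17 CPM in controls and between 0.373 and 0.642 CPM in K5-RANKL libraries, at −0.67 (SE 0.40, edgeR adjusted p = 0.151) and at −0.26 without control 3. Its 61 counts over all libraries leave a wide error, and its exons overlap Arhgap9 on the other strand (23.0 ± 1.67 and 20.9 ± 1.20 CPM, SD, n = 3 each). Gli2 lay between 1.02 and 1.77 CPM in controls and between 1.63 and 2.32 CPM in K5-RANKL libraries, at 0.47 (SE 0.28, edgeR adjusted p = 0.144), and at 0.25 without control 3 and 0.30 without K5-RANKL 1. Per kilobase, the ratio of Gli3 to Gli2 was 0.927 ± 0.434 in controls and 2.91 ± 0.608 in K5-RANKL glands (SD, n = 3 each), without overlap.

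Hhip showed the largest difference of all tested members. It encodes Hedgehog-interacting protein, a membrane-bound decoy that binds Hedgehog ligands, at chr8:79965850-80058060 (GRCm38.p6, minus strand). Hhip held 0.276, 0.392 and 0.547 CPM in controls, from 3, 4 and 7 counts, and 19.2, 8.02 and 18.6 CPM in K5-RANKL libraries, from 462, 150 and 399 counts. The lowest K5-RANKL library, K5-RANKL 2, was still far above every control. Hhip rose by 5.19 in log2 units (SE 0.69, 36.6-fold, edgeR adjusted p = 0.00142). Leaving out K5-RANKL 2 gave 5.48, and all alternatives lay between 4.98 and 6.19. With 14 control counts in all, the size of the fold is uncertain. The other inhibitor, Sufu, which holds Gli proteins in the cytoplasm, held 17.9, 19.9 and 19.6 CPM in controls and 24.4, 19.4 and 22.4 CPM in K5-RANKL libraries. It overlapped and stood at 0.21 (SE 0.10, edgeR adjusted p = 0.0789), and was called higher at 0.29 without K5-RANKL 2 (adjusted p = 0.0149). Without K5-RANKL 1 Sufu stood at 0.13 (0.308), its alternatives spanning 3.16e-09, by library totals, to 0.308.

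Hhip and Ptch1, both known Gli targets, went in opposite directions on the TMM scale, though by library totals both stood above 0. Per kilobase of exon, the ratio of Hhip to Ptch1 was 0.0499, 0.0504 and 0.0644 in the control libraries and 3.49, 1.35 and 3.20 in the K5-RANKL libraries. The ratio needs no scaling between libraries, and its groups lie far apart (exact permutation p = 0.1, two-sided, the smallest possible; the pair was chosen after its values were seen). Per kilobase, Ptch1 was the more abundant of the pair in every control and Hhip in every K5-RANKL library; in CPM, not divided by length, Hhip was below Ptch1 in K5-RANKL 2, at 8.02 against 9.30. The 250 bases before a RefSeq start of each are shown because these genes diverged, from GRCm38.p6, minus strand, 5′ to 3′. The window of Hhip is chr8:80058009-80058258 and that of Ptch1 chr13:63565736-63565985. Both windows lie before an internal start and not before the outermost one. The Ptch1 window lies inside the span of the gene (chr13:63508328-63573460). The Hhip window lies partly inside that of its gene (chr8:79965850-80058060).
Hhip: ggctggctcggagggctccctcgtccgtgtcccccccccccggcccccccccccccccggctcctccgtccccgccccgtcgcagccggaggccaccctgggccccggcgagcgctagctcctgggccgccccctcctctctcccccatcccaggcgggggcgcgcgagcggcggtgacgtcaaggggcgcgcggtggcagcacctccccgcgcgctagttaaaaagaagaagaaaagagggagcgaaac
Ptch1: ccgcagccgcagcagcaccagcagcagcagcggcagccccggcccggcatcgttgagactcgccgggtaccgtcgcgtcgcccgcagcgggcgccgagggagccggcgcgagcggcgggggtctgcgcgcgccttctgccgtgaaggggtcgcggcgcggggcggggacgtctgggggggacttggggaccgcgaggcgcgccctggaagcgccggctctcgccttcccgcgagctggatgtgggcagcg
Neither holds a capital, since no match was found in either to the GLI consensus GACCACCCA or the RBPJ core TGGGAA, on either strand. The GLI consensus is rare in windows of this length, 0.225% of 32851 holding it, and none of the 28 members with a window did. Both windows are rich in G and C, at 76.0% and 78.4%.

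**Figure D3:**
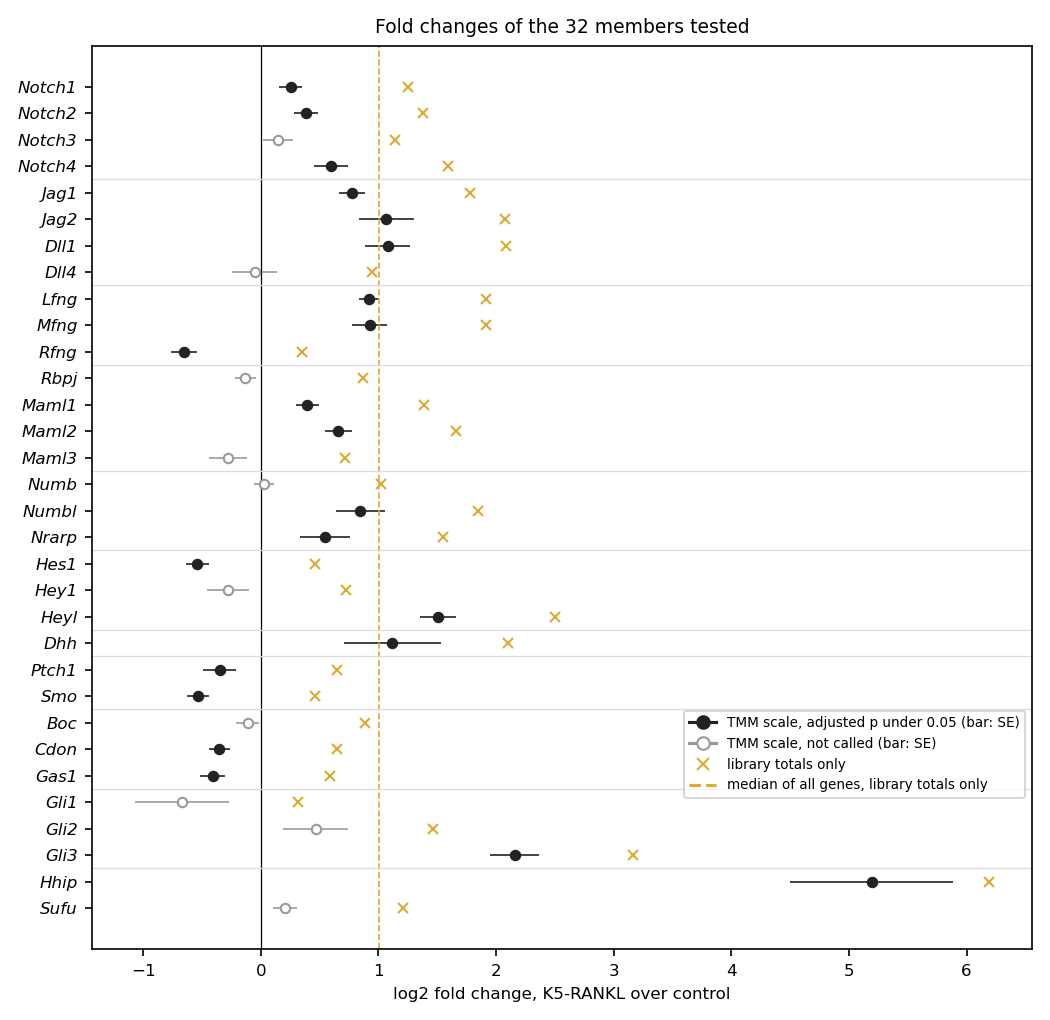
Log2 fold change, K5-RANKL over control (x axis), of the 32 members tested, ordered by role (y axis); circles are edgeR estimates on the TMM scale with their SE, filled where the adjusted p was under 0.05, and crosses are estimates by library totals, whose median over all genes, 1.01, is the dashed line. Hhip (5.19) and Gli3 (2.16) lie farthest to the right, and the 6 members called lower on the TMM scale lie above 0 by library totals but left of the dashed line.

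Of 42 further Hedgehog pathway genes listed, 41 symbols were in the table and 36 were tested. There were 6 higher (16.7%) and 11 lower (30.6%), with a median log2 fold change of −0.03, beside 34.2% and 32.1% of all genes. Among genes of at least 5 CPM the largest rise was that of Scube3, of a family of secreted proteins that help release Hedgehog ligands. Scube3 rose by 3.72 (SE 0.31) from 0.713 ± 0.332 to 9.75 ± 2.63 CPM (SD, n = 3 each, edgeR adjusted p = 1.75e-07). Among its K5-RANKL libraries the values were 12.1, 6.90 and 10.3 CPM, far above the highest control at 1.10 CPM. Of the same family, Scube1 (−0.13) was not called and Scube2 was not tested. Below 5 CPM, Lrp2 rose by 3.91 (SE 0.36), from a mean of 0.216 to 3.21 CPM. The arrestin gene Arrb2 rose by 1.36, and the cilium genes Evc2, Tulp3 and Arl13b by 0.69, 0.61 and 0.45. Those that fell most among genes of at least 5 CPM were Ulk3 (−0.87), the cilium transport gene Ift172 (−0.67), the ubiquitin ligase gene Btrc (−0.55), Arrb1 (−0.41) and Mgrn1 (−0.37). By library totals these 5 turned sign and stood between 0.13 and 0.63, and 34 of the 36 tested were higher and 1 lower.

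The 3 K5-RANKL libraries were not alike for every member. K5-RANKL 2 held 0.425 times the mean CPM of K5-RANKL 1 and 3 for Hhip, 0.576 times for Jag2, 0.665 times for Dll1 and 0.755 times for Jag1. It was also the lowest of its group for Dhh (0.642, from few counts) and Gli3 (0.840). The same library was low in Tnfsf11, at 0.568 times the mean of the others, and in Krt5 (0.421), Krt17 (0.463) and Krt14 (0.525), which encode keratins of basal cells. It was high in the acinar markers, all 8 lying above the mean of K5-RANKL 1 and 3 in log2(CPM + 0.5), by a median of 0.47. K5-RANKL 2 was level with the others for Lfng (1.04), Heyl (1.06), Mfng (1.09) and Notch2 (1.01), and for the endothelial gene Pecam1 (0.980) and the macrophage gene C1qa (1.02). K5-RANKL 2 was the lowest of its group for 8 of the 16 members called higher and for 51.5% of all genes called higher. All 5 listed basal markers rose, their sum going from between 98.5 and 103.7 CPM in controls to between 439 and 971.4 CPM. The part of basal and acinar markers in the rise of Jag1, Jag2, Dll1, Dhh, Gli3, Hhip, Nrarp and Notch1 was not tested. Without K5-RANKL 2 the log2 fold changes of Jag1, Jag2 and Dll1 were 0.89, 1.28 and 1.24, each still called higher.

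**Figure D4:**
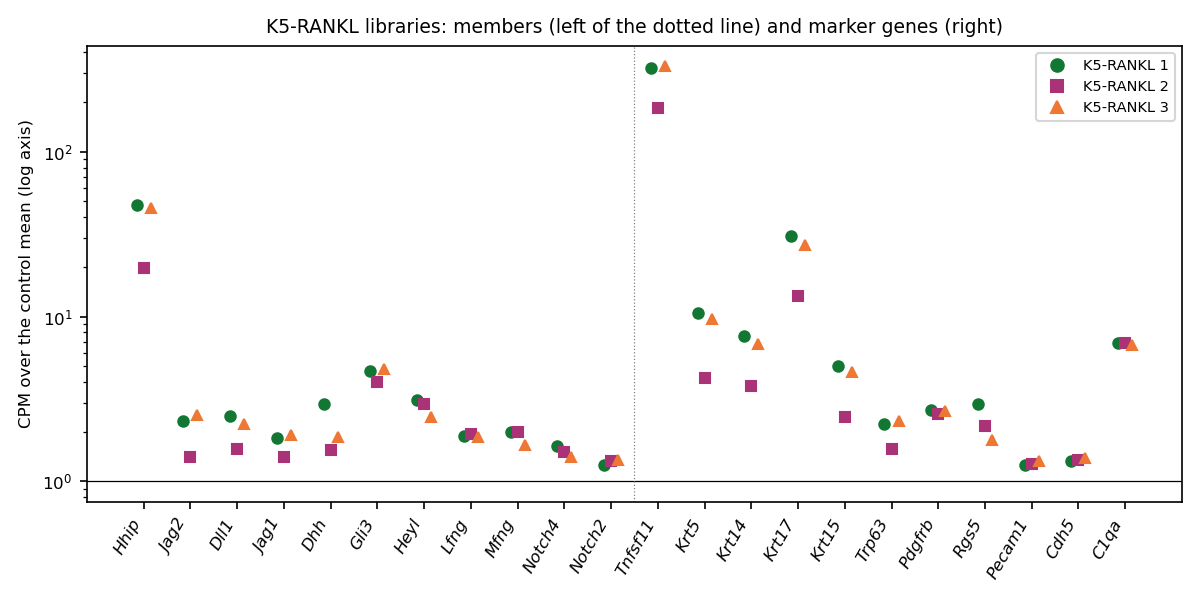
CPM in each of the 3 K5-RANKL libraries over the mean of the controls (log axis) for 11 members (left of the dotted line) and 11 marker genes (right); each point is 1 library and the horizontal line marks the control mean. K5-RANKL 2 lies below the other K5-RANKL libraries for Hhip, Jag2, Dll1, Jag1, Dhh and Gli3 and for Tnfsf11 and the basal keratin genes, but not for Lfng, Heyl or C1qa. Nrarp and Notch1, for which K5-RANKL 2 was also the lowest, are not drawn.

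Markers of the cells in which several members are known moved as well. Of 10 endothelial markers 3 rose and 2 fell, with a median of 0.20 and a sum between 149.8 and 164.3 CPM in controls and between 168.6 and 175 CPM in K5-RANKL libraries, beside Notch4 at 0.60 and Dll4 at −0.05. Of 7 pericyte and smooth muscle markers 5 rose and 1 fell, with a median of 1.02 and a sum that went from between 86.8 and 99.9 to between 158.2 and 184 CPM, beside Heyl at 1.51 and Notch3 at 0.15. Pdgfrb, the highest of these in both groups, went from 17.4 to 46.2 CPM. Of 7 fibroblast markers, with Dcn highest in controls and Col3a1 in K5-RANKL glands, 6 rose and 0 fell, with a median of 1.23 and a sum between 573.8 and 775.2 CPM in controls and between 2670 and 3126 CPM in K5-RANKL libraries. Over the same glands Gli3 rose by 2.16, while Ptch1, Smo and Gas1, known from stromal cells, were lower on the TMM scale. For Ptch1 the groups overlapped, and its call was lost when any of several libraries was left out. Of the other Gli and co-receptor genes, Cdon was lower (−0.35), and Boc (−0.11), Gli1 (−0.67) and Gli2 (0.47) were not called. Of 7 Schwann cell markers 1 rose and 3 fell, with a median of 0.04, beside Dhh, a Schwann cell ligand, at 1.12. Their sum lay between 139.3 and 156.2 CPM in controls and between 127.9 and 134.2 CPM in K5-RANKL libraries. Most of that sum was Sox10, highest in controls, and Mbp, highest in K5-RANKL glands. Sox10 fell from 88.8 to 39.3 CPM and Mbp rose from 45.0 to 81.25 CPM. Whether Sox10 stood for Schwann cells in this gland was not tested. No listed marker of these cell types was at 0, and the part of cell numbers in these results was not tested.

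Markers of immune, duct and myoepithelial cells were read as well. All 5 macrophage markers in the table rose, with Csf1r highest in controls and C1qa in K5-RANKL glands, from a sum between 144.7 and 170.7 CPM in controls to between 849 and 874.4 CPM in K5-RANKL libraries, and 4 of 5 T cell markers rose, with Cd4 highest in both groups, from between 47.9 and 52.9 to between 101.8 and 113.6 CPM. Of 6 B cell markers 2 rose and 0 fell, their sum going from between 119.2 and 132.3 to between 189.4 and 203.2 CPM. Cr2, also known from follicular dendritic cells, was the highest of this list in K5-RANKL glands but not in controls, where Cd79a was, and went from 16.2 ± 2.54 to 73.9 ± 0.711 CPM (SD, n = 3 each). Of 7 duct markers 3 rose and 4 fell, from a sum between 21050 and 23160 to between 6789 and 8890 CPM, with Klk1 highest in both groups. Of 6 myoepithelial markers 1 rose and 4 fell, from between 411.7 and 422.4 to between 345.9 and 394 CPM, with Acta2 highest in both groups. These marker directions are on the TMM scale.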

How the data were processed

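Messenger RNA of mouse salivary gland was measured in 3 control and 3 K5-RANKL libraries, prepared with a stranded kit per the labels' protocols. Values are raw read counts per gene as the authors deposited them. The aligner STAR and genome build mm10 come from the submitters' processing notes; counting tool, annotation and strand setting: not given in the sources used here. Exons of 16 of the 35 members overlap another GENCODE M21 gene, so their counts are less certain.

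Groups follow the genotype label; replicate numbers follow accession order. Pairs of libraries within a group differed by a chi-square of 6.26 to 38.3 per gene (genes with at least 20 counts), so none was a copy. Control 1 stood apart from controls 2 and 3, at 37.0 and 38.3, while controls 2 and 3 differed by 6.26. K5-RANKL pairs differed by 12.5 to 23.1. Genes were filtered with edgeR's filterByExpr (minimum count 10), scaled by TMM and tested over all 14044 genes with edgeR 4.0.16 (R 4.3.3), robust quasi-likelihood F-test, two-sided, Benjamini-Hochberg adjusted, called under 0.05; SE is the log2 fold change over the square root of F. The test was checked on simulated counts in which few genes changed, as many up as down. That check does not cover changes in as many genes as were called here. CPM use TMM-scaled library sizes, and per kilobase means the union of all GENCODE M21 exons of a gene. A count of 0 allows 3 counts, 0.234 to 0.294 CPM in controls and 0.124 to 0.160 CPM in K5-RANKL libraries, for counting error only. The 15 alternatives covered scaling, filters, DESeq2 1.42.0, voom (limma 3.58.1), edgeR without its robust option and leaving out each library. Positions and promoter windows come from RefSeq, GRCm38.p6, by Entrez identifier and symbol.

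Members and lists were chosen with earlier results of these data known. All 35 members are named; values per library are given for the 29 that were called or reached 5 CPM in a group mean. Of each further list the text names up to 5 called genes with the largest rise and 5 with the largest fall, with a mean of 5 CPM or more in the higher group, and of each marker list its member of highest mean CPM in each group where these differ; other marker genes, library ratios and the comparison of K5-RANKL libraries were chosen after their values were seen.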

Additional observations from a re-analysis of the deposited data

How the results depend on the processing

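No paired analysis was possible because the labels number no replicates across groups. With RLE or upper-quartile scaling, TMM without the 20 most abundant genes, no low-count filter, or edgeR without its robust option, all 32 members kept their direction and their side of the threshold; with at least 50 counts in 3 libraries this held for the 29 still tested. By library totals, which move the median of all genes to 1.01, members higher numbered 31 and lower 0, further Notch genes 39 and 0, and further Hedgehog genes 34 and 1. Signs then turned for Dll4 (0.95), Rfng (0.35), Rbpj (0.87), Maml3 (0.72), Hes1 (0.46), Hey1 (0.73), Ptch1 (0.65), Smo (0.46), Boc (0.89), Cdon (0.65), Gas1 (0.59) and Gli1 (0.32), and for Aph1b (0.51), Aph1c (0.27), Arrb1 (0.59), Btrc (0.44), Ift172 (0.32), Kat2b (0.39), Mgrn1 (0.63), Mib2 (0.29) and Ulk3 (0.13). DESeq2 lost 4 calls and voom 1. Leaving out 1 library gave 13 to 17 members higher and 5 to 7 lower; The log2 fold change of Dll4 then ran from −0.1419 to 0.03267, turning sign without control 3, and that of Numb from −0.01207 to 0.06365, turning sign without control 1 and K5-RANKL 2 in turn, with no call. Further Notch genes then numbered 14 to 16 higher and 9 to 12 lower, and further Hedgehog genes 6 to 8 and 9 to 11. Receptor shares differed by −2.16 to −0.27 points for Notch1, 1.55 to 3.16 for Notch2, −2.69 to −1.56 for Notch3 and 0.96 to 1.68 for Notch4 when a library was left out. Depth limits Shh, Ihh, Hey2, Gli1 and Dhh.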
